A study of Mus musculus with 2 samples.

Results

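The genes described here are 9 of the 32285 features measured: Cd47, Sirpa, Calr, Lrp1, Cd24a, Mertk, Axl, Gas6 and Pros1. They were taken as the rows of the feature table that carry these symbols, and each symbol matched 1 row. The data are single-cell RNA sequencing of MC38 tumors, a colon adenocarcinoma line of C57BL/6 origin grown under the skin of C57BL/6 mice. There were 2 libraries. The label of the first reads untreated, negative control, and the series record describes a vehicle of saline containing 10% DMSO injected into the tumor. In the second, MSA-2, a small-molecule agonist of the DNA-sensing adaptor STING, was injected into the tumor. Both followed a schedule of 3 doses at intervals of 3 days, and cells of 3 mice were pooled for each library. The methods place collection on day 7 after treatment, state that cells were sorted without naming the gate, and give both sexes for MC38 models. The methods give an age of 6 to 8 weeks for C57BL/6 mice. With 1 library per condition there is no replicate of either, so no difference below has a test. Intervals of 95% cover counting error only, and the effect of MSA-2 and a difference between these pools of mice cannot be told apart.

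A phagocyte decides whether to engulf a neighbouring cell by weighing signals on that cell's surface. Cd47 is a widely expressed membrane protein that engages Sirpa on myeloid cells, and Sirpa then recruits phosphatases that restrain engulfment. Cd24a encodes another glycoprotein that restrains phagocytes through sialic acid-binding receptors. Calr encodes calreticulin, a chaperone of the endoplasmic reticulum that promotes engulfment when it reaches the surface, and Lrp1 is the scavenger receptor known to recognise it. Mertk and Axl belong with Tyro3 to the TAM family of receptor tyrosine kinases, which take up dying cells and dampen innate responses. Gas6 and Pros1 (protein S) are secreted ligands that bridge phosphatidylserine on dying cells to receptors of this family. Gas6 is a ligand of all TAM receptors, and Pros1 is a ligand of Mertk and Tyro3. RNA counts do not show how much calreticulin is at the surface, nor how much receptor is shed.

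All 9 genes are protein-coding, and positions are those of the mm10 annotation. Mertk (ENSMUSG00000014361) lies at chr2:128698956-128802894 on the plus strand and Sirpa (ENSMUSG00000037902) at chr2:129592835-129632228 on the same strand. Axl (ENSMUSG00000002602) lies at chr7:25757273-25788705 on the minus strand. Cd47 (ENSMUSG00000055447) lies at chr16:49800533-49915010 and Pros1 (ENSMUSG00000022912) at chr16:62854307-62929346, both on the plus strand. Calr (ENSMUSG00000003814) lies at chr8:84841850-84846934 and Gas6 (ENSMUSG00000031451) at chr8:13465374-13494490, both on the minus strand. Lrp1 (ENSMUSG00000040249) lies at chr10:127538161-127621148 on the minus strand and Cd24a (ENSMUSG00000047139) at chr10:43578284-43584265 on the plus strand. Sirpa is related in sequence to the Sirpb1 genes, and whether reads were shared between them was not tested.

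Promoter sequences, from 250 bases before to 50 bases after the start, were matched for 7 of the 9 genes in RefSeq (GRCm38.p6), with none for Sirpa and Cd24a. The Mertk and Axl promoters are shown because the summed levels of these receptors differed in opposite directions in the same myeloid classes. Those of Lrp1 and Pros1 are shown because they alone held a match to one of 3 motifs searched on both strands. Capitals mark that match. The sequences are written 5′ to 3′ on the gene's strand.
Mertk, chr2:128698665-128698964: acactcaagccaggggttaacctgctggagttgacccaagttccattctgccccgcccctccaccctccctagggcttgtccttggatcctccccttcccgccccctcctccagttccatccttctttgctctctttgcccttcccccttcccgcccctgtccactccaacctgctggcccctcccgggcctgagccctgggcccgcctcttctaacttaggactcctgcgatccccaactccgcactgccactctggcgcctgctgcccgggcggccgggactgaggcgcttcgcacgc
Axl, chr7:25788684-25788983: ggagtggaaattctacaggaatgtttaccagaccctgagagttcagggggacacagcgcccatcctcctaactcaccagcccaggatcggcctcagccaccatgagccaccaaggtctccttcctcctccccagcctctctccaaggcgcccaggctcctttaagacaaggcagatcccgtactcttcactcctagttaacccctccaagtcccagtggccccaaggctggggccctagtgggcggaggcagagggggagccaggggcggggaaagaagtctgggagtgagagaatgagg
Lrp1, chr10:127621099-127621398: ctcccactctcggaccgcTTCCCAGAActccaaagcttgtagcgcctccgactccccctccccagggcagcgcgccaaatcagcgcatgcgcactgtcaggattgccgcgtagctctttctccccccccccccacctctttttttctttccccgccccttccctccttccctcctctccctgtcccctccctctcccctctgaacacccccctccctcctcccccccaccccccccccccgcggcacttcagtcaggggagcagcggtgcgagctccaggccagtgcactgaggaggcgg
Pros1, chr16:62854057-62854356: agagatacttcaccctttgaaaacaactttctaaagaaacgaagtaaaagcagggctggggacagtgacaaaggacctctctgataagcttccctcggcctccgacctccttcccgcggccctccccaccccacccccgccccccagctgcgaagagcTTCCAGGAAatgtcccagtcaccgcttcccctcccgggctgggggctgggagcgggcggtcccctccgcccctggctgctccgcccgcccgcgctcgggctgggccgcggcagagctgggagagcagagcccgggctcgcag
The motifs were the interferon-stimulated response element core TTCNNTTTC, the gamma-activated site TTCNNNGAA and the AP-1 site TGANTCA, and 8.53%, 8.33% and 7.79% of 32544 promoters of this length held one. Lrp1 and Pros1 each held 1 gamma-activated site, TTCCCAGAA beginning at position -232 and TTCCAGGAA beginning at position -92 from the start. The Mertk promoter was 66% G or C with 14 CpG dinucleotides, and that of Axl was 60.3% with 6. No match says only that these letters are not in this window.

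After filtering, 13334 untreated and 13351 MSA-2 cells were kept, with medians of 8298.5 and 9249 UMIs (unique molecular identifiers, each counting 1 captured transcript) per cell. The libraries shared 53 barcodes. Cells were placed in classes by gates on summed marker genes, and a class name below stands for its gate. Ptprc-negative cells, which had few UMIs of the pan-leukocyte gene Ptprc and marker scores well under every gate, made up 44.7% of untreated and 48.8% of MSA-2 cells. The labels call the sample tumor cells, but the epithelial markers were at or near 0 in this class: Krt7, the highest in the untreated library, was at 0.658 and 0.0567 CPM, Spint2, the highest with MSA-2, at 0.525 and 0.466 CPM, Epcam at 0.147 and 0.0189 CPM, and Krt18 had no UMI in the untreated library. These cells are therefore called Ptprc-negative. Rhox5, Asns, Phgdh, Shisal2b and Cox6a2 were in both libraries among the genes that most exceeded their level in the other kept cells. Whether this class is the MC38 tumor was not tested. Y-linked genes, chosen after their values were seen, summed to 6.30 and 4.37 CPM there. In the other classes they summed to 134.6 to 357.8 CPM untreated and 88.9 to 216.6 CPM with MSA-2, and the sum was lower with MSA-2 in each of the 8 classes (186.8 and 120.4 CPM in macrophages), so the pools differed in these genes too. The part of the mice's sex in the differences below was not tested. The untreated library held 3834 macrophages, 173 Ly6c2 monocytes and 26 neutrophils, and the MSA-2 library 1210, 570 and 2470. Within 25% of the cut of their gate lay 260 and 233 cells for macrophages and 406 and 535 for monocytes. Levels are given in CPM, a gene's UMIs as a share of all UMIs of the class, scaled as counts-per-million. All cells were also clustered together, without correction for differences between libraries and with the members and interferon-related genes left out. The libraries then stood apart within macrophages, monocytes and Ptprc-negative cells, and the part of a library effect in this split was not tested. Of 6 macrophage clusters, 4 held 4289 untreated and 87 MSA-2 cells and 2 held 65 and 896. Of 11 Ptprc-negative clusters, 4 held 6656 and 11 cells and 7 held 18 and 7172. Of the gated monocytes, 163 of 173 untreated cells fell in a cluster named macrophage and none in the cluster named monocyte, which held 556 of the 570 MSA-2 cells. Differences within these 3 classes are therefore between cells that mostly fell in different clusters. Fibroblasts fell in 1 cluster of both libraries (199 and 691 cells), as did endothelial cells (85 and 99), and the 3 clusters of T or NK cells held cells of both. Ratios were computed where both libraries held at least 50 cells, which left out dendritic cells (211 and 17) and neutrophils.

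**Figure D1:**
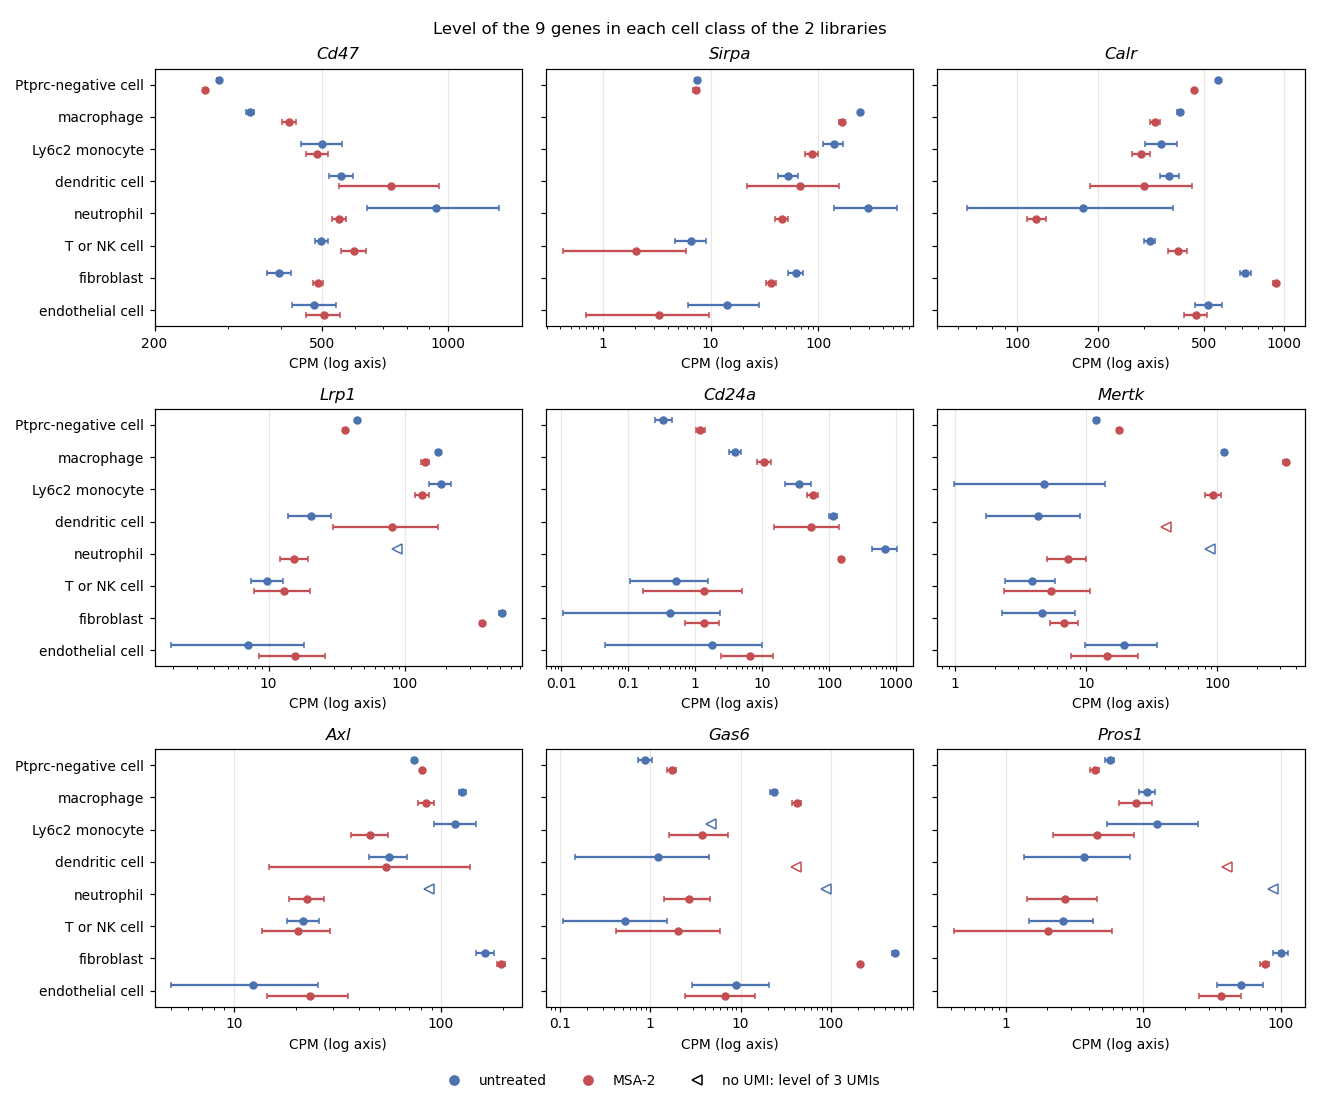
Level of each gene (CPM, log axis) in each class, untreated in blue and MSA-2 in red, with 95% Poisson intervals. Mertk and Sirpa were highest in macrophages among classes of at least 50 cells, and Gas6 and Lrp1 in fibroblasts.

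Cd47 was found in every class, and its level in Ptprc-negative cells hardly differed between the libraries. It was at 284.8 CPM (282 to 287.5) untreated and 263.7 CPM (261.2 to 266.2) with MSA-2, from 40664 and 41834 UMIs, a log2 ratio of -0.11 (-0.13 to -0.09). In macrophages the level was 337.4 CPM untreated and 418.5 CPM with MSA-2 (log2 ratio 0.31, 0.25 to 0.38). Fibroblasts had 396.1 and 489.7 CPM (0.31, 0.21 to 0.41), and T or NK cells 499.3 and 595.5 CPM (0.25, 0.14 to 0.36). In T cells alone the Cd47 ratio was 0.13 (-0.03 to 0.29) and in NK cells alone -0.03 (-0.26 to 0.20), and at the untreated makeup of T and NK cells it was 0.14. Monocytes had 500.3 and 488.1 CPM, and endothelial cells 480.1 and 505.4 CPM, and in both the interval of the ratio spanned 0. Among the classes compared, Ptprc-negative cells held the lowest Cd47 level in both libraries, and the intervals of untreated monocytes, T or NK cells and endothelial cells overlapped. Ptprc-negative cells, with medians of 21474 and 21086 UMIs each, supplied 72.4% of all Cd47 UMIs untreated and 73.8% with MSA-2.

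Calr, the calreticulin gene, was lower with MSA-2 in Ptprc-negative cells and macrophages, and higher in fibroblasts. Ptprc-negative cells had 565.4 CPM untreated and 460.6 CPM with MSA-2 (log2 ratio -0.30, -0.31 to -0.28). Macrophages had 406.1 and 328.1 CPM (-0.31, -0.38 to -0.24) and monocytes 346.8 and 290.6 CPM (-0.25, -0.48 to -0.03, but 0.05 under TMM scaling, which sets the bulk of genes equal). Fibroblasts, the class with the highest level, had 718.1 and 932.8 CPM (0.38, 0.30 to 0.45), while the 6 listed genes of calreticulin and its receptor had a median of 0.09 there. In T or NK cells the pooled level was 313.3 and 399.3 CPM (0.35, 0.21 to 0.49), but the ratio was -0.33 in T cells and 0.80 in NK cells. There were 119 untreated and 57 MSA-2 NK cells, and at the untreated makeup of T and NK cells the ratio was -0.06.

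Cd24a was highest in neutrophils and the cDC1 subset of dendritic cells. The gene had 723 UMIs in MSA-2 neutrophils (149 CPM) and 23 in the 26 untreated neutrophils (674.3 CPM, 427.4 to 1012). Among untreated dendritic cells it stood at 250.8 CPM in the cDC1 subset, 29.5 CPM in cDC2 and 29 CPM in mature regulatory dendritic cells. In Ly6c2 monocytes it had 34.8 CPM untreated and 56.6 CPM with MSA-2, from 22 and 122 UMIs (log2 ratio 0.70, 0.04 to 1.43). In Ptprc-negative cells 48 UMIs were counted untreated and 190 with MSA-2, or 0.336 and 1.20 CPM (log2 ratio 1.83, 1.37 to 2.32). Summed over 10 neutrophil markers, none at 0, MSA-2 Ptprc-negative cells stood at 0.450% of the neutrophil level, and that share of neutrophil Cd24a would be 0.671 CPM. In macrophages the level was 3.96 and 10.7 CPM from 87 and 65 UMIs (log2 ratio 1.43, 0.94 to 1.91), where the neutrophil share would give 1.14 CPM. That ratio ran from 0.33 with classes by clustering to 2.29 with a stricter gate. Of the gated macrophages, 2 of 3834 untreated and 289 of 1210 MSA-2 cells fell in the cluster named monocyte. The 7 monocyte markers summed to 901.2 and 1837 CPM in macrophages. The parts of neutrophil RNA and of monocyte-like cells in these differences were not tested. Across all kept cells, dendritic cells supplied 40% of Cd24a UMIs untreated, and neutrophils supplied 56.6% with MSA-2.

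Sirpa, the receptor of Cd47, was highest in macrophages among classes of at least 50 cells and was lower with MSA-2 in macrophages, monocytes and fibroblasts. Macrophages had 245.5 CPM (239 to 252.1) untreated and 167.5 CPM (157.4 to 178.1) with MSA-2, from 5388 and 1021 UMIs. The level was 1.47-fold lower (log2 ratio -0.55, -0.65 to -0.45). Monocytes had 139.3 and 87.1 CPM (-0.68, -1.05 to -0.29) and fibroblasts 62.1 and 36.4 CPM (-0.77, -1.05 to -0.49). In Ptprc-negative cells the level was 7.54 and 7.29 CPM. Summed over C1q genes, which mark macrophages, those cells stood at 1.84% and 0.708% of the macrophage level, shares that would give 4.52 and 1.19 CPM of Sirpa. In cells thinned to 1500 UMIs each, 28.8% of untreated and 18.6% of MSA-2 macrophages held a Sirpa UMI, against 63.4% and 44.1% unthinned. In T or NK cells, which should lack the gene, the thinned share was 0.877% and 0.408%. Over all kept cells Sirpa was at 39.2 and 16.8 CPM. Macrophages supplied 74.9% of its UMIs untreated and 31.9% with MSA-2, so the level over all kept cells mixes the number of macrophages with the level within them.

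Lrp1, which recognises calreticulin among many ligands, was highest in fibroblasts, at 518.1 CPM untreated and 371.4 CPM with MSA-2 (log2 ratio -0.48, -0.57 to -0.39). Macrophages had 176.4 and 140.9 CPM (-0.32, -0.43 to -0.22) and monocytes 183.7 and 133.5 CPM (-0.46, -0.78 to -0.14), and the intervals of these 2 classes overlapped in each library. Ptprc-negative cells had 44.8 and 36.3 CPM (-0.30). The ratio in T or NK cells spanned 0, at 9.77 and 12.9 CPM.

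**Figure D2:**
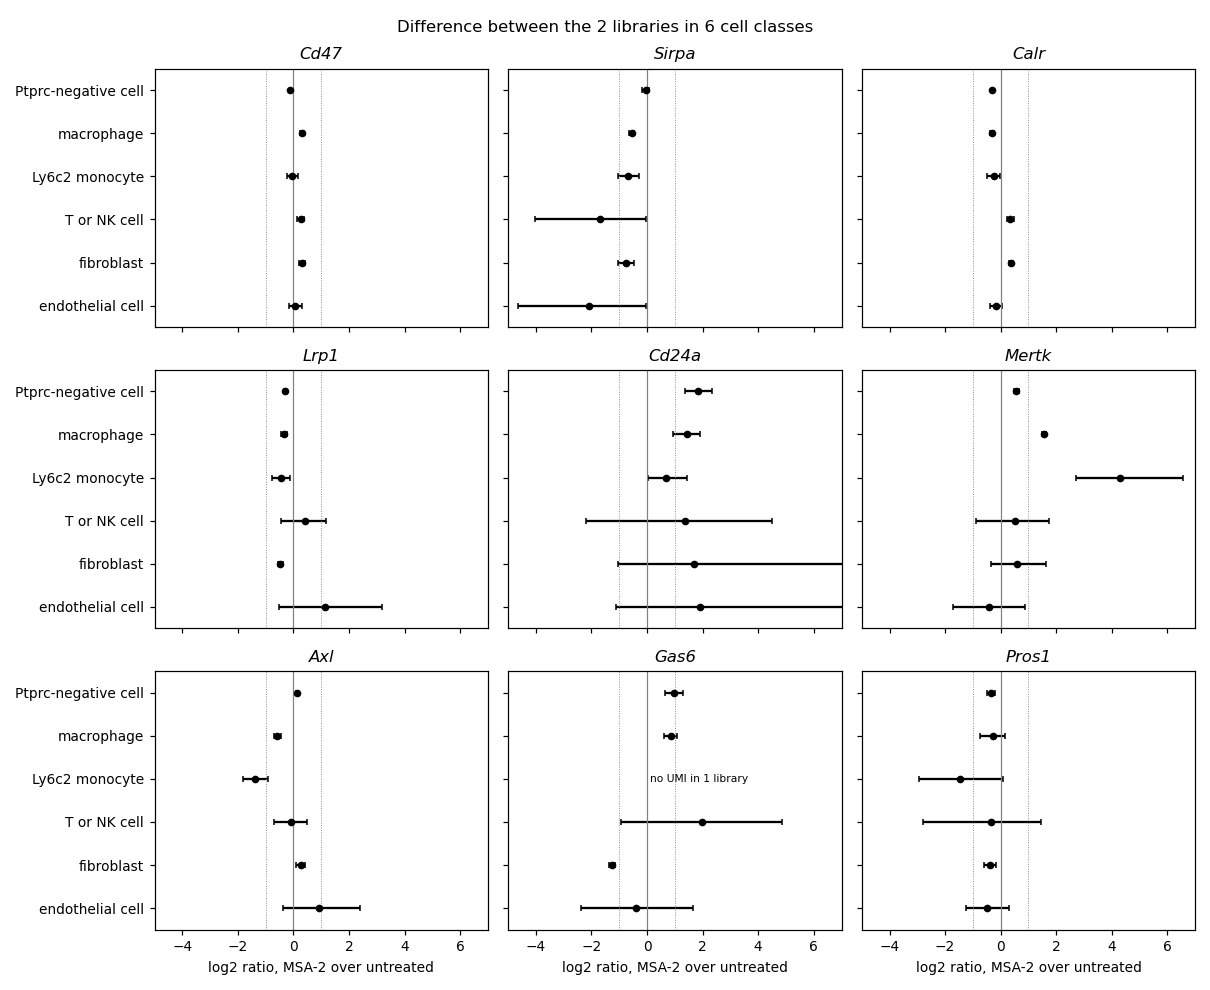
Log2 ratio of MSA-2 over untreated CPM for each gene (panels) and class, with exact conditional 95% intervals that cover counting error; 2 Cd24a intervals are clipped at 7. Mertk is to the right of 0 in macrophages (1.56) and monocytes (4.28), where Axl is to the left (-0.58 and -1.37).

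The TAM receptors differed in opposite directions in macrophages and monocytes. Mertk in macrophages stood at 112.4 CPM (108 to 116.9) untreated and 332 CPM (317.7 to 346.8) with MSA-2, from 2467 and 2024 UMIs, which is 2.95-fold higher (log2 ratio 1.56, 1.48 to 1.65). In monocytes 3 UMIs were counted untreated and 199 with MSA-2, or 4.75 and 92.2 CPM, a ratio of 19.4 with a log2 ratio of 4.28 (2.71 to 6.57). This sets the untreated monocytes, of which 163 of 173 clustered with macrophages, against MSA-2 monocytes of another cluster (556 of 570), and the part of that split in the Mertk and Axl values of monocytes was not tested. C1q genes in monocytes stood at 3.69% and 4.38% of the macrophage level, and those shares of macrophage Mertk would be 4.15 and 14.5 CPM. The untreated value lies near that level and the MSA-2 value above it. The nuclear RNA Malat1 was also higher with MSA-2 in macrophages (9747 and 12655 CPM, 0.38), monocytes (8015 and 13300 CPM, 0.73) and Ptprc-negative cells (4808 and 5275 CPM, 0.13). It was lower in T or NK cells (-0.47), fibroblasts (-0.20) and endothelial cells (-0.28). The part of RNA quality in the Mertk difference was not tested. Macrophages and monocytes were the classes with the highest Mertk in the MSA-2 library. Ptprc-negative cells had 12 and 17.7 CPM (0.57, 0.48 to 0.66), against 2.07 and 2.35 CPM from the C1q share. Untreated dendritic cells had 4.31 CPM, and the 17 MSA-2 dendritic cells had no UMI, which allows up to 40.6 CPM.

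Axl in macrophages stood at 126.8 CPM (122.1 to 131.6) untreated and 85 CPM (77.8 to 92.6) with MSA-2, from 2783 and 518 UMIs, which is 1.49-fold lower (log2 ratio -0.58, -0.72 to -0.44). Monocytes had 117.2 and 45.4 CPM, which is 2.58-fold lower (-1.37, -1.82 to -0.91). The untreated levels of these 2 classes overlapped. In fibroblasts, the class with the most Axl, the level was 162.9 and 195.3 CPM (0.26, 0.10 to 0.42), and in Ptprc-negative cells 74 and 81.3 CPM (0.14, 0.10 to 0.17). Ptprc-negative cells supplied 72.1% and 79.7% of all Axl UMIs. Tyro3, the other TAM receptor, was at 6.09 and 6.57 CPM in Ptprc-negative cells.

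The receptors were then counted together in single cells after thinning to 1500 UMIs. Too shallow for this were 163 macrophages of the untreated library and 68 of the MSA-2 library. Of the untreated macrophages 10.8% held Mertk UMIs only, 15% Axl only, 1.91% both and 72.2% neither. Of the MSA-2 macrophages 27.1% held Mertk only, 7.44% Axl only, 4.38% both and 61% neither. The share with any Mertk UMI was 12.7% (11.7 to 13.8) and 31.5% (28.8 to 34.3), or 31.2% and 56.1% unthinned, and in T or NK cells it was 0.585% and 0.816% thinned. In monocytes 1.18% and 10.2% held Mertk only and 10.7% and 5.40% Axl only. Most cells of either class held neither receptor at this depth.

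**Figure D3:**
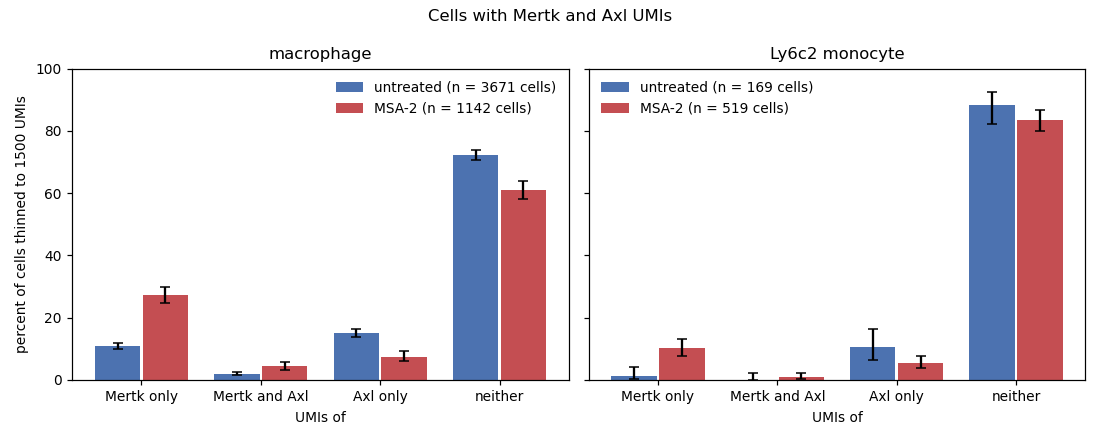
Percent of macrophages (left) and Ly6c2 monocytes (right), thinned to 1500 UMIs, with UMIs of Mertk only, both receptors, Axl only or neither, with exact 95% binomial intervals. Mertk-only macrophages were 10.8% untreated and 27.1% with MSA-2, and Axl-only macrophages 15% and 7.44%.

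The log2 ratios of Mertk, Axl and Sirpa had the same sign in the 3 macrophage subsets, of which the resident-like and cycling ones overlap, with 13 untreated and 35 MSA-2 cells in both. Mertk was higher with MSA-2 in resident-like macrophages (65.2 and 281.2 CPM, log2 ratio 2.11), cycling macrophages (100.1 and 413.8 CPM, 2.05) and the other macrophages (117.2 and 324.5 CPM, 1.47). Axl log2 ratios in the same order were -0.56, -0.56 and -0.48, of which the resident-like interval spanned 0. Those of Sirpa were -0.22, -0.40 and -0.70, again with the resident-like interval spanning 0. In cycling cells that were not resident-like, a setting chosen after seeing the data, Mertk was at 2.16, Sirpa at -0.66 and Axl at -0.24 with an interval that spanned 0. The subsets took different shares of the class, since resident-like cells were 69 of 3834 untreated and 174 of 1210 MSA-2 macrophages.

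**Figure D4:**
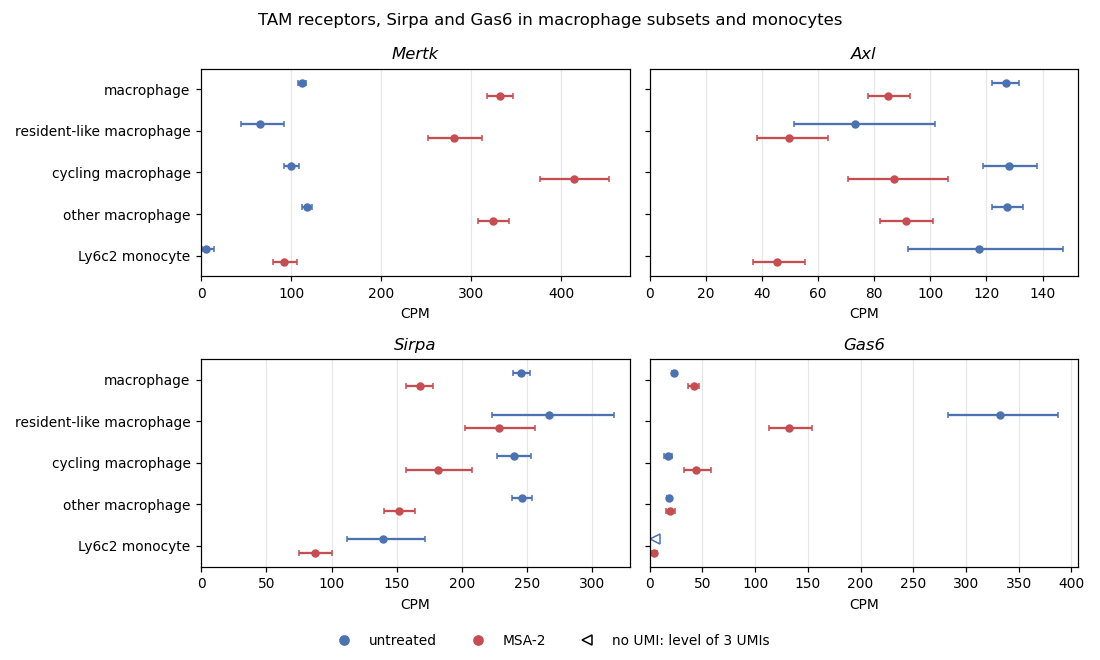
Levels (CPM) of Mertk, Axl, Sirpa and Gas6 in macrophages, their 3 subsets and Ly6c2 monocytes, with 95% Poisson intervals; a triangle stands at the level of 3 UMIs where none was counted. Mertk is higher with MSA-2 in every subset shown, while Gas6 is lower in resident-like macrophages (332 and 132.2 CPM) and higher in cycling ones (17.1 and 44 CPM), which share 13 and 35 cells with them.

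Gas6, the ligand of all TAM receptors, came mainly from fibroblasts. They had 503.1 CPM (475.2 to 532.3) untreated and 211.7 CPM (202.6 to 221) with MSA-2, from 1208 and 2049 UMIs, which is 2.38-fold lower (log2 ratio -1.25, -1.35 to -1.15). The sum of the 8 listed fibroblast markers was also lower in this class (47914 and 26456 CPM), though Dcn was at 3345 and 3728 CPM. The part of a different makeup of fibroblasts in the Gas6 difference was not tested. Fibroblasts numbered 196 and 628 cells, and they supplied 62.5% and 76% of all Gas6 UMIs. Over all kept cells the level was 10.5 and 14.1 CPM, so the class with the lower level still supplied a larger share. In macrophages Gas6 was at 23.1 and 41.7 CPM (0.85, 0.63 to 1.07). Within subsets the log2 ratio was -1.33 in resident-like (332 and 132.2 CPM), 1.36 in cycling and 0.09 in the other macrophages, whose interval spanned 0. The cycling value rests on the cells that were also resident-like, which held 40 and 38 of its Gas6 UMIs. In the other cycling cells, 640 and 109 in number, Gas6 was at 10.1 and 14.3 CPM from 53 and 11 UMIs (0.51, -0.58 to 1.46), an interval that spanned 0. With the untreated subset makeup the MSA-2 level was 20.5 CPM and the log2 ratio -0.18, the reverse of the direction in the whole class. The 6 fibroblast markers used in the gate were in macrophages at a level that would give 1.39 and 2.36 CPM of Gas6, and all 8 listed markers would give 3.45 and 4.42 CPM. Ptprc-negative cells had 0.889 and 1.74 CPM of Gas6, where the 6 markers would give 2.11 and 2.58 CPM and all 8 would give 18.7 and 19.2 CPM. Monocytes had no UMI untreated, which allows up to 4.75 CPM, and 8 UMIs with MSA-2.

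Pros1, the other TAM ligand, was also highest in fibroblasts, at 99.5 CPM untreated and 76.2 CPM with MSA-2 (log2 ratio -0.39, -0.60 to -0.17). Endothelial cells had 51.4 and 36.7 CPM from 29 and 33 UMIs, and macrophages 10.7 and 8.86 CPM (-0.27, -0.73 to 0.16). In both the interval spanned 0. Ptprc-negative cells had 5.69 and 4.43 CPM (-0.36, -0.51 to -0.21). In resident-like macrophages Pros1 was at 48.9 and 14.4 CPM, from 24 and 18 UMIs.

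Dendritic cells and neutrophils were too few in one library for ratios, and their levels are given side by side. Untreated and MSA-2 dendritic cells had 555.2 and 730.4 CPM of Cd47, 53 and 67.6 CPM of Sirpa, and 372.2 and 297.6 CPM of Calr. The MSA-2 values of these genes rest on 54, 5 and 22 UMIs. Dendritic cells had 20.3 and 81.2 CPM of Lrp1 and 56.1 and 54.1 CPM of Axl, where the MSA-2 values rest on 6 and 4 UMIs. Neutrophils of the MSA-2 library had 548.8 CPM of Cd47, 117.9 CPM of Calr, 45.7 CPM of Sirpa, 22.5 CPM of Axl, 15.5 CPM of Lrp1 and 7.21 CPM of Mertk. The 26 untreated neutrophils held 32 UMIs of Cd47 and 10 of Sirpa and none of Lrp1, Mertk, Axl, Gas6 or Pros1, which allows up to 88 CPM of each.

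**Figure D5:**
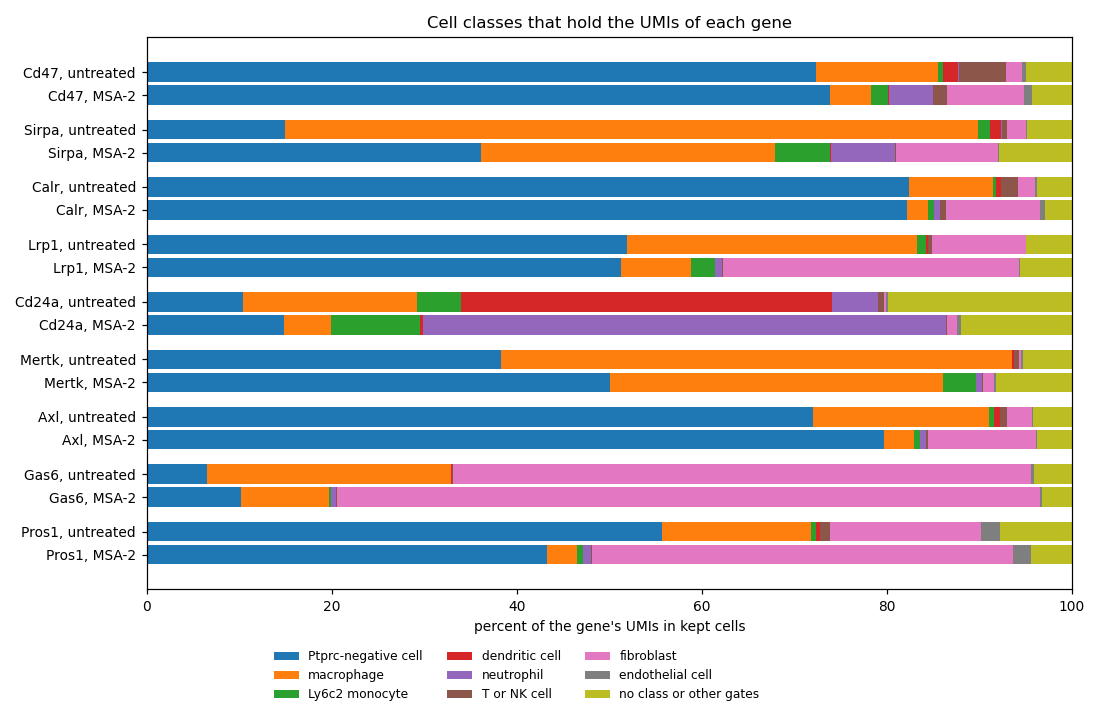
Percent of each gene's UMIs that came from each class, for all kept cells of the untreated and MSA-2 libraries. Macrophages supplied 74.9% of Sirpa UMIs untreated and 31.9% with MSA-2, and fibroblasts 62.5% and 76% of those of Gas6.

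To set these genes against the rest of the transcriptome, a gene with at least 50 UMIs in a class was counted as higher or lower at a log2 ratio of at least 1, after 1 CPM was added to each level. In Ptprc-negative cells all 9 members were measured and none passed in either direction, where 3.03% of all genes were higher and 1.8% lower. In macrophages all 9 were measured and Mertk and Cd24a were higher, where 5.26% of genes were higher and 3.9% lower. Summed monocyte markers were also higher there (901.2 and 1837 CPM). The cluster named monocyte held 2 untreated and 289 MSA-2 macrophages. In monocytes 7 were measured, Mertk was higher and Axl lower, where 12.3% were higher and 10.1% lower. Mertk reached the minimum of 50 UMIs there through the MSA-2 library, since the untreated library held 3 of its UMIs, so this count says nothing about it beyond the values above. In fibroblasts 8 were measured and Gas6 was lower, where 6.06% were higher and 6.29% lower. Gas6 no longer reached this threshold with equal weight per cell (-0.80) or in thinned cells (-0.94), nor did Cd24a in macrophages with classes by clustering (0.33). Of the 4 measured in T or NK cells none passed, where 3.15% were higher and 6.32% lower. Of the 3 measured in endothelial cells none passed, where 5.22% were higher and 4.54% lower. The median log2 ratio of all genes was 0.04 in Ptprc-negative cells, -0.14 in macrophages, -0.21 in monocytes, -0.16 in T or NK cells, -0.15 in fibroblasts and -0.13 in endothelial cells. Genes longer than 100 kb, Mertk among them at 103.9 kb, had medians of 0.02 in macrophages and 0.14 in monocytes. The part of gene length in the Mertk difference was not tested.

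Of 65 measured genes of the wider pathway lists, members included and the interferon check left out, 5 were higher in macrophages (7.69%, beside 5.26% of all genes) and 3 lower (4.62%, beside 3.9%). Of 9 measured genes of TAM receptors, ligands and shedding, 1 was higher and none lower (median log2 ratio -0.25). Adam17, a protease that sheds Mertk, had 164.3 and 208 CPM (0.34), and Adam10, a related protease, 81.2 and 55.1 CPM (-0.56). Of 8 measured receptors and phosphatases of the restraining signals 1 was higher, Pirb (81.9 and 171.3 CPM, 1.06), and Ptpn6, a phosphatase recruited by Sirpa, had a log2 ratio of -0.41. Among 10 measured receptors and bridges for phosphatidylserine 2 were higher and 1 lower: the scavenger receptors Cd36 (23.4 and 66.6 CPM, 1.51) and Msr1 (92.7 and 229.3 CPM, 1.31), and the inhibitory receptor Cd300a (57.9 and 27.4 CPM, -1.08). Of 14 engulfment genes 1 was lower, the nuclear receptor Pparg (27.6 and 7.87 CPM, -1.81). None of 5 Fc receptor genes passed, although Fcgr1, the high-affinity IgG receptor, had 271.2 and 415.5 CPM (0.62). None of the 6 genes of calreticulin and its receptor passed (median -0.26), nor any of 7 genes of phosphatidylserine exposure (-0.01). Among 6 measured genes of restraining ligands and their maturation, Cd24a was higher and Qpct, a glutaminyl cyclase, was lower (7.24 and 2.79 CPM, -1.38, from 159 and 17 UMIs). As a check, all 7 interferon response genes were higher in macrophages, with a median of 1.88.

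In monocytes 7 of 50 measured genes of these lists were higher (14%, beside 12.3% of all genes) and 4 lower (8%, beside 10.1%), shares near those of all genes. There the list of TAM receptors, ligands and shedding had 1 gene higher and 2 lower of 6 measured (median -0.52), with Adam10 at -1.06 beside Axl. Mertk is in that median through its MSA-2 UMIs. Of 8 measured receptors and bridges for phosphatidylserine in monocytes 2 were higher, Cd300lf (112.4 and 247.5 CPM, 1.14) and the integrin subunit Itgav (156.7 and 328.2 CPM, 1.07). In that list 2 were lower, Cd300a (96.6 and 23.6 CPM, -2.03) and the scavenger receptor Olr1 (174.2 and 49.1 CPM, -1.83). Its median was -0.22. Outside the interferon check, the other listed genes past the threshold in monocytes were all higher: the Fc receptor Fcgr4 (1.15), the lipid transporter Abca1 (1.10), the inhibitory receptor Lilrb4a (1.01) and the flippase Atp11a (1.31, from 9 and 76 UMIs, so that it too reached the minimum through the MSA-2 library). Fcgr1 (0.96) and Msr1 (0.98) stayed under it. In fibroblasts 5 of 56 measured genes of these lists were higher (8.93%, beside 6.06% of all genes) and 2 lower (3.57%, beside 6.29%). Besides Gas6, those past the threshold were Olr1 (2.08 and 17.6 CPM, 3.08), Cd300lf (2.08 and 5.99 CPM, 1.52), Lilrb4a (1.27), Stc1 (1.45) and the scramblase Xkr8 (3 and 48 UMIs, 1.99) as higher, and Rubcn (-1.22) as lower. All of these had fewer than 25 UMIs in the untreated library, and the 5 higher ones reached the minimum of 50 UMIs through the MSA-2 library, where they are high, so nothing is read from their share beside that of all genes. Mfge8, a secreted bridge to phosphatidylserine, had 137.9 and 72.5 CPM in fibroblasts (-0.93), short of the threshold. In Ptprc-negative cells 1 of 70 was higher (1.43%, beside 3.03% of all genes) and 2 lower (2.86%, beside 1.8%). Lilrb4a was higher (3.80 and 10.5 CPM, 1.47), and Itgb5 (77.7 and 26.2 CPM, -1.57) and the Fc receptor Fcgr2b (7.29 and 2.83 CPM, -1.36) were lower. The C1q share of the macrophage level would give 7.79 and 2.49 CPM of Fcgr2b, near both of its values. It would give 4.18 and 2.99 CPM of Lilrb4a, near the untreated value and below that with MSA-2, and 2.73 and 0.753 CPM of Itgb5, below both. The part of macrophage RNA in these differences was not tested.

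In T or NK cells 2 of 42 measured genes of the lists were higher (4.76%, beside 3.15% of all genes) and 5 lower (11.9%, beside 6.32%). Higher were Lilrb4a (76.1 and 184.7 CPM, 1.28) and Thbs1, a secreted ligand of Cd47 (8.72 and 21.7 CPM, 1.32). Lower were Ptpn6 (102.9 and 46.9 CPM, -1.14), Qpct (70 and 2 UMIs), Itgb5 (80 and 9 UMIs), Fcgr2b (61 and 3 UMIs) and Fcgr4 (45 and 5 UMIs). These last 4 reached the minimum mainly through the untreated library, where they are high, so nothing is read from the share of lower genes either. The C1q share of the macrophage level would give 10.5 and 2.77 CPM of Fcgr2b, measured at 10.6 and 2.04 CPM, and 8.72 and 3.04 CPM of Fcgr4, measured at 7.85 and 3.40 CPM. The untreated level of Thbs1 was also near that share (9.03 CPM). In endothelial cells 1 of 33 was higher (3.03%, beside 5.22% of all genes), Cd36 (60.2 and 214.4 CPM, 1.83), from 34 and 193 UMIs. Cd36 reached the minimum of 50 UMIs through the MSA-2 library, so nothing is read from the share of higher genes. In that class 3 were lower (9.09%, beside 4.54%): Stc1 (285.2 and 94.4 CPM, -1.60), Mfge8 (175.4 and 62.2 CPM, -1.50) and the phosphatidylserine-binding Anxa5 (508.4 and 245.5 CPM, -1.05).

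Across 14 points (the classes and libraries with enough cells, which share library and depth), the genes whose levels most resembled each member were named by Pearson's r of log2(CPM + 10) over 6378 genes, as a description. Mertk was most like Pf4 (0.93), Ccl12 (0.91) and Folr2 (0.89), and Sirpa like P2rx4 (0.94), Csf1r (0.93) and Apobec1 (0.91). Calr was most like the chaperone-related Pdia6 (0.98), Ddost (0.96) and Hsp90b1 (0.95). Gas6 was most like Igf1 (0.98), Col14a1 (0.97) and C4b (0.96), and Axl like Lmo4 (0.92), Dse (0.92) and Scpep1 (0.90). Lrp1 was most like Rnase4 (0.94), Pla2g4a (0.93) and Dse (0.93), Cd24a like Mcemp1 (0.94), Gyg (0.94) and Il1r2 (0.91), and Pros1 like Chpf2 (0.98), Nrep (0.96) and Sgce (0.96). Cd47 had the weakest likeness, with the Y-linked Ddx3y (0.82), Nedd9 (0.81) and Gm15283 (0.79).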

How the data were processed

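Libraries were made with 10x Genomics 3′ v3.1 chemistry. The authors deposited filtered matrices of raw UMI counts per gene and barcode, made with Cell Ranger on mm10. Its version is 7.0.1 in the file headers, 7.0.0 in the submitters' processing notes and a later one in the methods. Whether intronic reads were counted is not given in the sources used here. The matrices held 14386 and 14617 barcodes, the numbers the methods give as immune cells after filtering, and 198135335 and 204387165 UMIs. Barcodes were kept (14039 and 13963) if they had 500 or more genes and no more than 20% of UMIs from mitochondrial genes, and 705 and 612 doublets called by Scrublet in scanpy 1.11.5 were removed. Classes were gated per cell on marker UMIs per 10000 UMIs. Cells passing the macrophage and monocyte gates (343 and 263) were macrophages, cells passing other gates together (133 and 158) were left out, and 1258 and 1423 cells passed none. Some listed markers (Col3a1, Dcn, Fscn1, Vcan, Plac8, Fn1, Cox6a2, Runx2) were left out of gates after values were seen. The class of Ptprc-negative cells needed at least 5000 UMIs. UMIs were summed per class and library and compared as log2 ratios of CPM with exact conditional binomial intervals (scipy 1.17.1). Shares have Clopper-Pearson intervals, and 3 UMIs is the level that a count of 0 allows. Functions were tested on simulated data. A further macrophage subset is not reported here, and its cells were counted with the other macrophages. Members were all named; genes beyond them came from pathway lists, and likeness from the 3 highest correlations. The members, lists and gates were chosen with earlier results of these data known. Alternatives changed cell filters, gates, clustering, weighting, TMM scaling (edgeR 4.0.16), thinning and subset makeup.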

Additional observations from a re-analysis of the deposited data

Results flagged for a closer look

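Each result here had ratios of opposite sign in the groups compared, and none of the differences was tested, since each condition had 1 library. The groups were picked by their values, as those with the highest and lowest ratio of a gene among intervals that did not span 0. Each difference is therefore the largest of its kind among the classes, the macrophage subsets or T and NK cells. The log2 ratio of Cd47 was 0.31 in macrophages and -0.11 in Ptprc-negative cells, a difference of 0.42. That of Calr was 0.38 in fibroblasts and -0.31 in macrophages, a difference of 0.69, and 0.80 in NK cells and -0.33 in T cells, a difference of 1.13. Axl had 0.26 in fibroblasts and -1.37 in monocytes, a difference of 1.63. Gas6 had 0.97 in Ptprc-negative cells, where its level was below that which fibroblast markers would give, and -1.25 in fibroblasts, a difference of 2.22. Within macrophages Gas6 had 1.36 in cycling and -1.33 in resident-like cells, a difference of 2.69, but 13 untreated and 35 MSA-2 cells were in both subsets. In cycling cells that were not resident-like it had 0.51 (-0.58 to 1.46), so opposite directions in these subsets were not established.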

How the results depend on the processing

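Of 446 values recomputed for 53 results on the members, 426 kept their direction and 20 did not. Besides 3 that reversed, 59 lay outside the counting interval of the reported value, and 32 of the 446 differed from it by over 1.5-fold. In 17 of the 20 the interval of the reported value already spanned 0, and the other 3 follow. The log2 ratio of Gas6 in macrophages became -0.18 at the untreated subset makeup, that of Calr in T and NK cells -0.059 at that makeup, and that of Calr in monocytes 0.048 under TMM scaling. In Ptprc-negative cells Cd47 was -0.13 with equal weight per cell, -0.19 under TMM and -0.17 in thinned cells, and Calr was -0.33, -0.37 and -0.32. In macrophages Sirpa was -0.45 with every barcode or with doublets kept, -0.44 by clustering, -0.69 in thinned cells, -0.70 outside the resident-like and cycling subsets and -0.68 at the untreated makeup. Mertk was 1.68 with every barcode or with doublets kept, 1.47 outside those subsets and 1.66 at the untreated makeup. Axl was -0.42 at the untreated makeup, and Lrp1 was -0.21 with every barcode. In fibroblasts Gas6 was -1.36 by clustering, -0.80 with equal weight, -1.03 under TMM and -0.94 in thinned cells, so a log2 ratio of 1 in size was lost with equal weight and in thinned cells. Mertk in monocytes ranged from 3.70 to 4.58, and clustering gave no value because its monocyte cluster held 6 untreated cells, none of them gated as monocytes. Cd24a in macrophages ran from 0.33 by clustering to 2.29 with a stricter gate. A minimum of 200 UMIs left 3 genes of the TAM list in monocytes, of which Mertk passed through the MSA-2 library, and 4 of the phosphatidylserine receptor list, too few for a median to be read (-0.52 to 0.46 and -0.22 to 1.02). Gas6 in cycling macrophages went from 1.36 to 0.51 (-0.58 to 1.46) without cells that were also resident-like. The cause of the other shifts was not tested. The subset settings were chosen after seeing the data. No paired analysis was possible because each condition had 1 library. Depth limits Cd24a outside neutrophils, dendritic cells and monocytes, Gas6 and Pros1 in monocytes and most values in endothelial cells.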
